A study of Mus musculus with 23 samples.

Results

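Reads from the old LINE families of the mouse genome other than L1 in spinal cord were compared between PS19 mice and their littermate controls. The members are every row of the deposited table whose class is LINE or LINE? and whose family is not L1, which gave 26 of 1135 repeat subfamilies. They fall into 6 families: CR1 with 15 subfamilies, L2 with 4, RTE-X with 4, and RTE-BovB, Dong-R4 and Penelope with 1 each. The 4 groups were 7 PS19 samples and 6 control samples at 9 months, and 5 PS19 samples and 5 control samples at 4 months. PS19 mice are heterozygous for a mutant human tau transgene driven by a prion promoter and develop tau deposits in neurons, and the controls were wild-type littermates. The colony came from founders of the Jackson Laboratory, and total lysate of the spinal cord gave poly(A)-selected RNA for stranded, paired-end sequencing. The table holds repeats and no genes, so neither the tissue nor the transgene was checked against expressed genes here.

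LINEs are retrotransposons that copy themselves through an RNA intermediate with a reverse transcriptase of their own. Of the LINEs of the mouse, L1 is the active family. L2, the L3 elements of the CR1 family and the RTE elements stopped moving early in mammalian history, so that their copies are short, diverged and shared with other mammals. L2 once mobilised the MIR SINEs, which carry the L2 tail at their 3′ end. Many such copies lie in introns and untranslated regions of genes, and the table does not tell apart reads of an element's own transcript and reads of a host gene's RNA. In lysate of a whole tissue, fewer cells of a type and less RNA per cell cannot be told apart.

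Values are normalized reads per subfamily, which the authors made by dividing read numbers by a size factor for each sample. They are not corrected for length or copy number, so levels are compared between samples and not between subfamilies. Repeat reads ran from 338090 to 2168280 per sample and member reads from 12208 to 63569. At 4 months the samples stood apart in a pair of sets that follow the numbers in their titles. Replicates 1 to 3 of each genotype carried the lower numbers and had 1494940 to 2459740 normalized repeat reads, and replicates 4 and 5 had 471178 to 779835. At 9 months the totals ran from 394920 to 539759 in PS19 and from 370990 to 462762 in control. The test was limma on log2(value + 1) over the 920 subfamilies with a mean of at least 10, and a subfamily was called at a Benjamini-Hochberg adjusted p under 0.05. It covered 20 members. The labels do not say that the samples of a group came from separate animals, so the p-values measure the spread between these samples. Replicate numbers only name samples. The 6 others, X1_LINE, X2_LINE, X5A_LINE, X5B_LINE, X7D_LINE and UCON13, had means under 10. L5 passed that filter through its 4-month samples.

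The L2 family gave most of the member reads. L2b had a lowest, median and highest value of 4698, 4971 and 5358 normalized reads in PS19 at 9 months, and of 4947, 5146 and 5639 in control at 9 months. At 4 months L2b was at 7020.3, 7573, 9393, 3373 and 2041 in PS19 replicates 1 to 5, and at 8140.2, 12262, 10179, 2163 and 2783 in control replicates 1 to 5. Its 9-month values lay within the range of the 4-month values, in which replicates 1 to 3 were high and replicates 4 and 5 low in both genotypes. L2a was at 2903, 3269.8 and 4281 in PS19 at 9 months, again as lowest, median and highest, and at 2925, 3114 and 3417 in control at 9 months. Its 4-month values were 11187, 11830.5, 14719, 4886 and 2809.6 in PS19 and 12387, 19729.8, 15528, 2807 and 3737 in control. For L2a every replicate 1 to 3 at 4 months lay above all 9-month samples, and replicates 4 and 5 lay above them (PS19 replicate 4), among them (control replicate 5) or below them. L2c was at 1427, 1673 and 2360.4 in PS19 at 9 months and at 1506, 1679.9 and 1877 in control at 9 months. At 4 months it was at 7832, 8193, 9632, 3793 and 2209 in PS19 and at 9387, 12774, 9719, 1654 and 2265 in control. Replicates 1 to 3 again exceeded all 9-month samples for L2c, as did PS19 replicate 4, and the other 4-month samples lay among them. The subfamily that bears the family's name, L2, was at 2454 to 3358 in PS19 and 2355 to 3179 in control at 9 months, and at 2092 to 10358 in PS19 and 2083 to 14593 in control at 4 months.

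CR1 elements take their name from a repeat first found in chicken, and L3 is the CR1 group of mammals. L3 was at 3635, 3966 and 4345 normalized reads in PS19 at 9 months (lowest, median, highest) and at 3758, 3964 and 4337 in control at 9 months. At 4 months L3 was at 4964, 5124, 6507, 3085 and 1955 in PS19 and at 5229.8, 8296, 6309.8, 2322 and 2675 in control. The 9-month samples fell between the sets of 4-month samples. L3b was at 928, 1049 and 1169 in PS19 and at 992, 1081 and 1140.4 in control at 9 months. At 4 months L3b was at 936, 945, 1323, 487 and 263 in PS19 and at 1019.6, 1697, 1356, 358 and 350.5 in control. The 9-month samples overlapped with replicates 1 to 3 for L3b and exceeded replicates 4 and 5. X7A_LINE, a CR1 remnant, was at 186, 241 and 294 in PS19 and at 204, 237 and 336 in control at 9 months. At 4 months X7A_LINE was at 106, 144, 160.5, 111 and 69.1 in PS19 and at 132, 202, 149, 57.5 and 81.4 in control. In both genotypes every 9-month sample exceeded every 4-month sample for X7A_LINE, so that even the high set of replicates 1 to 3 stayed below. X6A_LINE was at 88.8, 103 and 139 in PS19 and at 58.2, 86.2 and 134 in control at 9 months, against 39.5, 26.9, 41.6, 13.6 and 2.44 in PS19 and 37.5, 86.2, 28.9, 5.75 and 14.2 in control at 4 months. Its ages did not overlap in PS19 and overlapped in control through control replicate 2 at 4 months. The 6 other tested CR1 subfamilies, Plat_L3, X6B_LINE, X7B_LINE, X8_LINE, CR1_Mam and X7C_LINE, had means between 33.1 and 119 normalized reads over all samples. CR1_Mam was at 2.19 to 19.4 in PS19 and 1.9 to 18.7 in control at 9 months, against 117, 105, 156, 29.5 and 13 in PS19 and 135, 180.4, 177, 2.88 and 36.6 in control at 4 months. X8_LINE was at 56 to 77.9 in PS19 and 36.2 to 86 in control at 9 months, against 50.8, 41.8, 48.5, 15.9 and 14.6 in PS19 and 55.1, 95.3, 58.9, 7.67 and 20.1 in control at 4 months.

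RTE elements are short LINEs with an endonuclease of the apurinic type, and the L4 and L5 subfamilies are their remnants in mammals. L4_A_Mam was at 90.7, 142 and 164 normalized reads in PS19 at 9 months (lowest, median, highest) and at 90.0, 125 and 142 in control at 9 months. At 4 months it was at 256, 267, 326, 148 and 93.5 in PS19 and at 280.0, 404, 316, 79.6 and 125 in control. Replicates 1 to 3 at 4 months were above all 9-month samples, and replicates 4 and 5 were among them or, in control replicate 4, just below. L4_C_Mam was at 4.39, 14.4 and 28.6 in PS19 and at 6.02, 12.2 and 20.9 in control at 9 months. At 4 months L4_C_Mam was at 232, 228, 211, 82.8 and 31.7 in PS19 and at 239, 419, 324, 28.8 and 36.6 in control. All 10 samples at 4 months exceeded all 13 samples at 9 months for L4_C_Mam, though control replicate 4 at 4 months was only just above PS19 replicate 6 at 9 months. L4_B_Mam was at 29.9 to 53.5 in PS19 and 19.9 to 54.6 in control at 9 months, against 85.3 to 206 in PS19 and 30.7 to 306 in control at 4 months. L5 had few reads at 9 months, between 1 and 8 in each PS19 sample and between 0 and 5 in each control sample, with 4 controls at 0. X3_LINE, the RTE-BovB member, was at 23.7 to 37.4 in PS19 and 33.1 to 51.4 in control at 9 months. At 4 months X3_LINE was at 56.5, 59.4, 56.6, 9.08 and 8.94 in PS19 and at 45.5, 104, 49.2, 5.75 and 9.44 in control. Mam_R4 belongs to the Dong-R4 group, whose relatives use a restriction-like endonuclease. It was at 14.3 to 28.5 in PS19 and 7.68 to 26.1 in control at 9 months, against 3.25 to 43.9 in PS19 and 8.26 to 91.9 in control at 4 months. In PS19 the 9-month samples of X3_LINE and Mam_R4 lay between the sets of 4-month samples. In control X3_LINE at 9 months overlapped with replicates 1 to 3 and Mam_R4 with replicates 4 and 5.

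**Figure D1:**
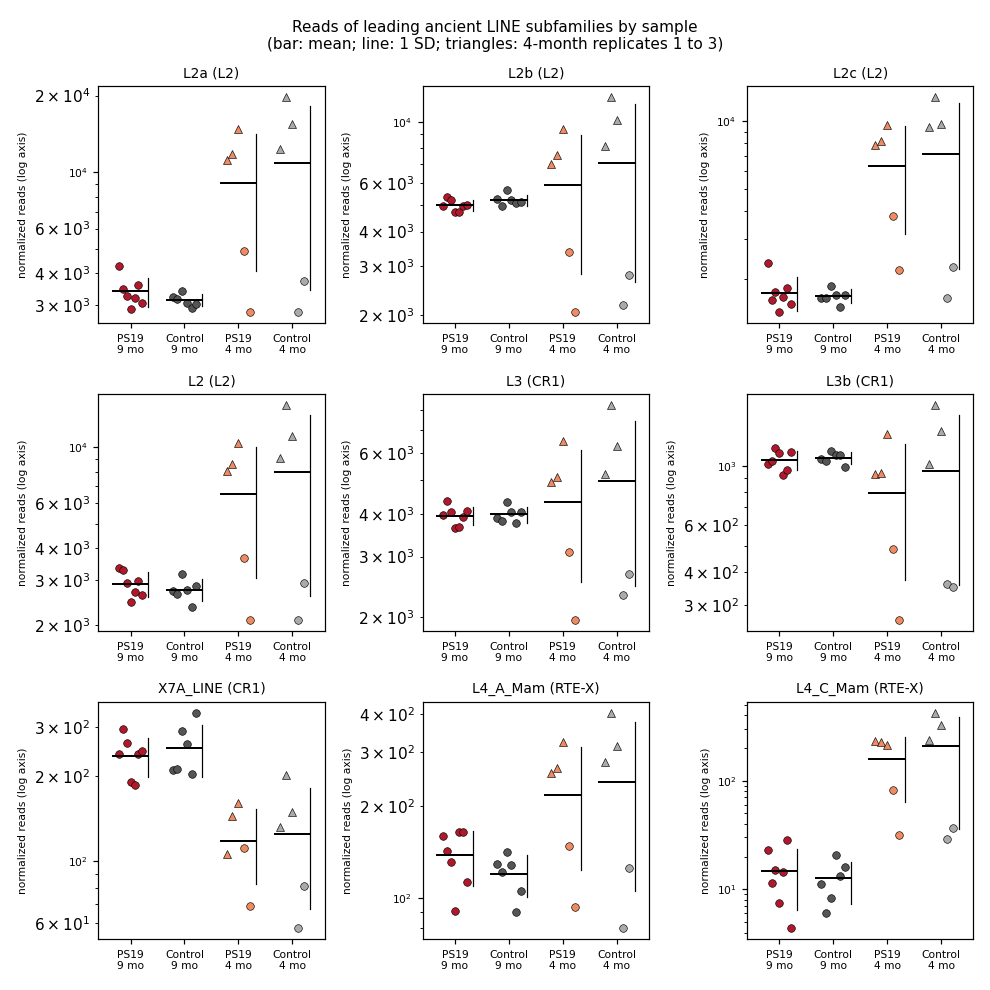
Normalized reads of 9 ancient LINE subfamilies in each of the 23 samples, on a log axis, for PS19 and control at 9 months and PS19 and control at 4 months; points are samples, triangles are replicates 1 to 3 at 4 months, the horizontal bar is the mean and the vertical line 1 SD. The 9-month groups of both genotypes lie close together and span less of the log axis than the 4-month groups. X7A_LINE is higher and L4_C_Mam lower at 9 months than in every 4-month sample of the same genotype. In every panel but that of X7A_LINE the triangles lie above the other 4-month samples of their genotype.

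The comparison of PS19 with control at 9 months asked whether these elements differ in spinal cord with tauopathy. Of the 20 tested members, 0 were called, while limma called 31 of all 920 subfamilies, 3.37 percent. The median log2 fold change of the members was 0.03, beside 0.19 over all tested subfamilies. It was 0.06 over the 4 L2 subfamilies, -0.03 over the 10 CR1 subfamilies and 0.33 over the 4 RTE-X subfamilies. Among the comparison families the median was 0.22 for L1, 0.03 for MIR and 0.21 for the hAT-Charlie DNA transposons. At an unadjusted p under 0.05 there were 2 members, L5 and X6A_LINE. edgeR's quasi-likelihood test on the reads behind the values called 0 members, with 0 at an unadjusted p under 0.05, and 2.61 percent of all subfamilies. DESeq2, which estimated its own size factors from the tested subfamilies, called 0 members and 5.87 percent of all subfamilies. It had 5 members at an unadjusted p under 0.05. On that scaling the median log2 fold change of the members was -0.15, beside 0.02 with edgeR on the authors' size factors. Each of the 13 fits that left out a 9-month sample also called 0 members. Their count over all subfamilies ran between 7 without control replicate 4 and 78 without control replicate 3.

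For the most abundant members the intervals were narrow. L2a had a log2 fold change of 0.11 (95% interval -0.08 to 0.29), and L2b one of -0.06 (-0.21 to 0.09). L2c was at 0.04 (-0.17 to 0.25) and L2 at 0.08 (-0.11 to 0.27). L3 was at -0.01 (-0.17 to 0.14) and L3b at -0.03 (-0.21 to 0.15). For these 6 subfamilies both ends of the interval were within 0.29 of 0 on the log2 scale, on the authors' scaling. Less abundant members were measured with less precision. X6A_LINE, at 88.8 to 139 normalized reads in PS19 and 58.2 to 134 in control, had a log2 fold change of 0.41 (SE 0.19, limma adjusted p 0.276), and its groups overlapped. X7C_LINE was at 12.1, 16.5 and 33 in PS19 (lowest, median, highest) and at 16.1, 28.2 and 33.2 in control, a log2 fold change of -0.56 (SE 0.28, adjusted p 0.303). The X7C_LINE groups overlapped as well. X7B_LINE was at 44 to 80.5 in PS19 and 51.2 to 105 in control, a log2 fold change of -0.33 (adjusted p 0.383). X3_LINE had one of -0.25 (adjusted p 0.516) and L4_B_Mam one of 0.47 (adjusted p 0.312), at the values given above. L5 had a fitted log2 fold change of 1.31 (adjusted p 0.22), which was 0.49 with a pseudocount of 5 and 1.81 with a pseudocount of 0.5, and its reads were near 0.

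**Figure D2:**
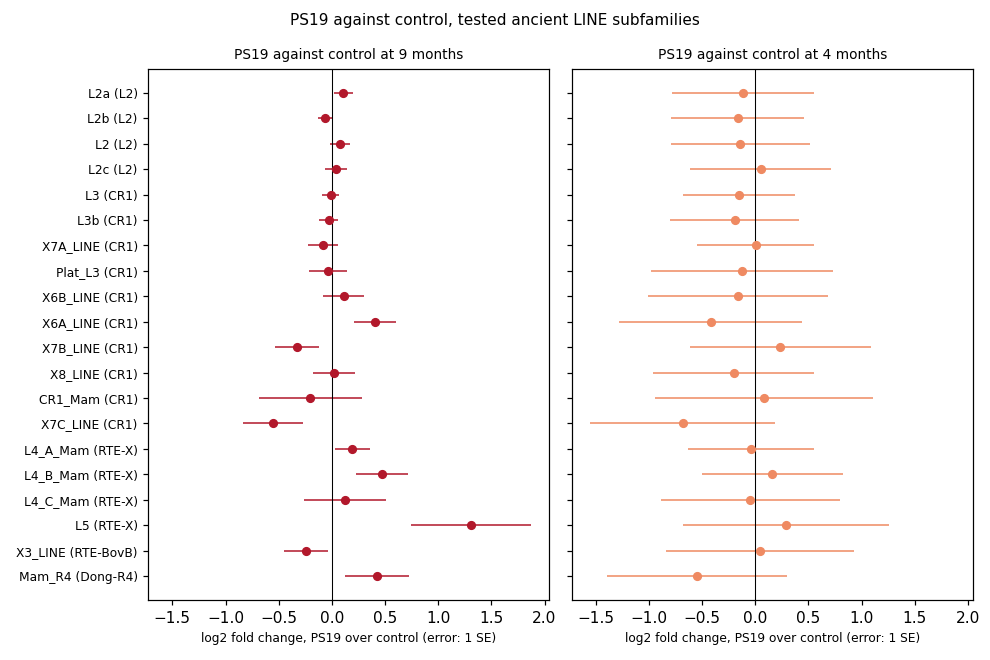
Log2 fold change of PS19 over control for the 20 tested ancient LINE subfamilies, grouped by family, at 9 months (left) and 4 months (right); points are limma estimates and lines 1 SE. At 9 months the L2 subfamilies, L3 and L3b lie within 0.11 of 0 with short error lines, on the authors' scaling, and none of the 20 was called at either age.

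As a share of all repeat signal, the members took less in PS19 than in control at 9 months, and no sample overlapped between the genotypes. All members together made up 3.89, 4.31 and 4.45 percent in PS19 (lowest, median, highest) and 4.47, 4.65 and 4.78 percent in control. The L2 family made up 2.77, 2.92 and 2.99 percent in PS19 and 3.05, 3.18 and 3.23 percent in control, with means of 2.92 ± 0.0694 percent (SD, n = 7) and 3.17 ± 0.0617 percent (SD, n = 6). Every PS19 sample lay below every control for the L2 share. The summed L2 reads on the authors' scaling were 13029 ± 1148 normalized reads in PS19 and 12770.3 ± 748 in control, a log2 ratio of 0.03, with overlapping groups. The total of all repeats had a log2 ratio of 0.15 over the same samples. The CR1 family made up 1.28 ± 0.118 percent in PS19 and 1.42 ± 0.0524 percent in control, and its groups overlapped. RTE-X made up 0.0444 ± 0.00745 percent in PS19 and 0.0408 ± 0.0045 percent in control. MIR, given for comparison, made up 5.9 ± 0.416 percent in PS19 and 6.35 ± 0.399 percent in control, with overlap. PS19 replicates 1 to 5 have lower title numbers than all 6 controls. Replicates 6 and 7, numbered like the controls, had L2 shares of 2.92 and 2.97 percent, also below every control.

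With each sample scaled to the same total of repeat signal, 0 members were called at 9 months, beside 2.5 percent of all subfamilies, and 6 members had an unadjusted p under 0.05. This scaling moved the median log2 fold change of all tested subfamilies to 0.05 and that of the members to -0.11. All 4 L2 subfamilies were then below 0 and 9 of the 10 CR1 subfamilies, while 3 of the 4 RTE-X subfamilies were above 0. L2b came closest to the threshold, with a log2 fold change of -0.21 (SE 0.06, adjusted p 0.0549). Its share of the repeat signal was 0.921, 1.15 and 1.22 percent in PS19 (lowest, median, highest) and 1.22, 1.29 and 1.36 percent in control. Its highest PS19 sample was just below its lowest control. L2b was the only member whose groups did not overlap on that scaling, and 0.543 percent of all subfamilies were lower in PS19 without overlap. The other 5 were X7C_LINE (-0.71), L3 (-0.16), X7B_LINE (-0.47), X3_LINE (-0.39) and L5 (1.73), given as log2 fold changes, with adjusted p between 0.15 and 0.259.

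**Figure D3:**
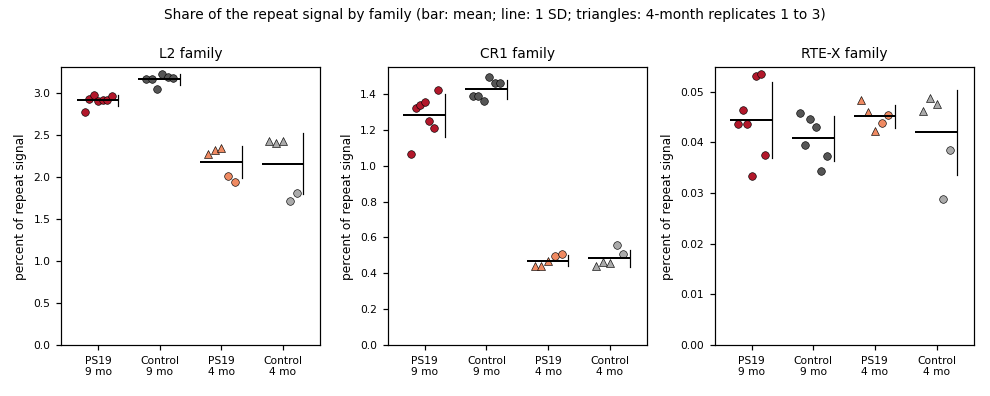
Percent of the repeat signal of each sample that fell on the L2, CR1 and RTE-X families, for PS19 and control at 9 months and PS19 and control at 4 months; points are samples, triangles replicates 1 to 3 at 4 months, bars means and vertical lines 1 SD. At 9 months the L2 share is lower in all 7 PS19 samples than in all 6 controls, the CR1 share is higher at 9 than at 4 months in all samples, and the mean RTE-X share lies between 0.0408 and 0.0451 percent in all 4 groups.

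At 4 months no difference between the genotypes was detectable in any member. limma called 0 of the 20 members and 0 percent of all 920 subfamilies, with 0 of either at an unadjusted p under 0.05. edgeR called 0 as well, with 0 members and 0 subfamilies at an unadjusted p under 0.05, and DESeq2 called 0, with 0 members and 12 subfamilies at an unadjusted p under 0.05. The median log2 fold change was -0.12 over members and -0.08 over all subfamilies. The 95% intervals were wide, for example -1.49 to 1.16 for L2b and -1.28 to 0.97 for L3. When the fit at 4 months held the set as a term, the lowest p of the members was that of X7C_LINE, at a log2 fold change of -0.68 (SE 0.34, p 0.0594, adjusted p 0.993 in limma). X7C_LINE was at 47.6, 58.5, 70.4, 10.2 and 4.06 normalized reads in PS19 replicates 1 to 5, against 56.6, 108, 78.1, 13.4 and 16.5 in control replicates 1 to 5. As a share of the repeat signal, L2 was at 2.28, 2.32, 2.35, 2.02 and 1.94 percent in PS19 and at 2.43, 2.41, 2.43, 1.72 and 1.81 percent in control. The control shares enclosed those of PS19. All PS19 shares lay below those of control within replicates 1 to 3 and above them within replicates 4 and 5, which was not tested. CR1 was at 0.471 ± 0.0296 percent in PS19 and 0.484 ± 0.0482 percent in control (SD, n = 5 each).

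Whether the effect of PS19 differs between 9 and 4 months was tested with an interaction term over all 23 samples. limma called 0 members and 0 percent of the 920 subfamilies, with 0 members and 8 subfamilies at an unadjusted p under 0.05. edgeR called 0 members and 0 subfamilies, with 0 members and 11 subfamilies at an unadjusted p under 0.05. DESeq2 called 0 members and 2 subfamilies (0.217 percent), with 1 member and 59 subfamilies at an unadjusted p under 0.05. Mam_R4 had an interaction of 0.97 (SE 0.82) and X6A_LINE one of 0.82 (SE 0.77) on the log2 scale, each with an adjusted p of 0.997. With sample weights estimated from the data, limma called 9 members and 45.4 percent of all subfamilies for the interaction. L2b was at 0.10 in the fit without weights, with a 95% interval of -1.03 to 1.24.

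Between 9 and 4 months the members did not move as a block. X6A_LINE and X7A_LINE were higher at 9 months in both genotypes, and L4_C_Mam was lower in both. These 3 held their call and direction in each of 12 fits per genotype and in every fit that left out a sample. The 12 fits covered other scalings, filters, pseudocounts, tools, weights and each set of 4-month samples alone. How many of all tested subfamilies held theirs through these fits was not counted. It is thus not known whether this is particular to the 3 members. Calls as lower were common among all subfamilies, at 77 percent in PS19 and 79.3 percent in control on the authors' scaling. Calls as higher were at 6.09 percent in each genotype. X6A_LINE had log2 fold changes of 2.60 (SE 0.54, limma adjusted p 0.000114) in PS19 and 1.78 (SE 0.55, adjusted p 0.00436) in control. X7A_LINE was at 1.04 (SE 0.32, adjusted p 0.00411) in PS19 and 1.13 (SE 0.33, adjusted p 0.00265) in control. L4_C_Mam was at -3.18 (SE 0.61, adjusted p 6e-05) in PS19 and -3.35 (SE 0.63, adjusted p 3.24e-05) in control. The labels do not say whether the ages were prepared and sequenced together, so age and preparation cannot be told apart.

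On the authors' scaling 3 members were higher and 7 lower at 9 months in PS19, beside 6.09 percent of all subfamilies higher and 77 percent lower. In control 3 were higher and 7 lower, beside 6.09 percent higher and 79.3 percent lower. The median log2 fold change of members was -0.10 in PS19 and -0.41 in control, beside -1.83 and -2.14 over all subfamilies. By family it was -1.07 in PS19 and -1.29 in control for L2, 0.70 and 0.48 for CR1, and -2.03 and -2.70 for RTE-X. L1 had medians of -2.23 in PS19 and -2.48 in control, MIR of -0.74 and -0.90, and hAT-Charlie of -1.39 and -1.50. The 7 lower members passed in both genotypes and were L2, L2a, L2c, CR1_Mam, L4_B_Mam, L4_C_Mam and L5. L5 was tested only because of its 4-month values, so its call as lower at 9 months is not independent of the filter. L2c fell by 1.68 in PS19 and by 1.67 in control on this scaling, and L2a by 1.19 and by 1.41. L2b, of the same family, was at -0.03 in PS19 and -0.14 in control, and L3 at -0.01 and -0.15, all 4 without a call. CR1_Mam was at -2.73 in PS19 and -2.45 in control and L4_B_Mam at -1.75 and -2.06. Of the 7, L4_C_Mam alone kept its call as lower under every alternative. L2 was called as higher in both genotypes with the same total of repeat signal, with TMM factors within repeats and with DESeq2, and L2a with TMM factors and DESeq2. L2c was called as higher in control with TMM factors and DESeq2 and was without a call in PS19 with both. CR1_Mam and L4_B_Mam lost their calls in both genotypes with TMM factors and DESeq2. With the same total of repeat signal, L4_B_Mam and L5 lost theirs in PS19 and CR1_Mam in control, and L5 also lost its call in PS19 with TMM factors and DESeq2. Against 4-month replicates 4 and 5 alone, L2, L2a, CR1_Mam and L5 had no call in either genotype, and L2c and L4_B_Mam none in control. X8_LINE was higher in PS19 alone (1.02, adjusted p 0.0422) and X7B_LINE in control alone (1.34, adjusted p 0.0267). Their interactions were 0.23 and -0.56, without a call. Leaving out 1 sample ended some of these calls. X8_LINE passed in 3 of 12 such fits, and lost its call without any 1 of the 7 PS19 samples at 9 months or without PS19 replicate 4 or 5 at 4 months (limma adjusted p 0.0507 to 0.13). X7B_LINE lost its call without control replicate 4 at 9 months (0.0538) and without control replicate 4 (0.119) or 5 (0.106) at 4 months. L2 lost its call in PS19 without PS19 replicate 4 at 9 months (0.053) and without PS19 replicate 1 (0.0865), 2 (0.0925) or 3 (0.114) at 4 months, and in control without control replicate 2 at 4 months (0.0565). Other calls appeared. L4_A_Mam, at -0.55 in PS19 and -0.79 in control, was called as lower without PS19 replicate 5 at 4 months (0.0388) and without control replicate 4 (0.00444) or 5 (0.0277) at 4 months, and L3b in PS19 as higher without PS19 replicate 3 at 4 months (0.0472). Values of X6A_LINE, X7A_LINE and X8_LINE did not overlap between the ages in PS19, on the higher side (4.89 percent of all subfamilies), nor did those of L4_B_Mam and L4_C_Mam, on the lower side (43.3 percent). In control X7A_LINE was without overlap on the higher side (3.7 percent) and L4_C_Mam on the lower side (48.4 percent).

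The count of members and the direction of several of them depended on the scaling. As shares of the repeat signal, both large families were higher in every 9-month than in every 4-month sample. The same held for MIR, at 5.16 to 6.91 percent at 9 months and 3.66 to 4.31 percent at 4 months. L2 made up 2.77 to 2.99 percent in PS19 and 3.05 to 3.23 percent in control at 9 months, against 1.94 to 2.35 percent in PS19 and 1.72 to 2.43 percent in control at 4 months. CR1 made up 1.06 to 1.42 percent in PS19 and 1.36 to 1.49 percent in control at 9 months, against 0.441 to 0.505 percent in PS19 and 0.44 to 0.558 percent in control at 4 months. With every sample scaled to the same total of repeat signal, 14 members were higher and 3 lower at 9 months in PS19, beside 22.9 percent of all subfamilies higher and 49.9 percent lower. In control 14 were higher and 3 lower, beside 24.7 percent higher and 51.3 percent lower. The median log2 fold change of members was then 1.20 in PS19 and 1.14 in control, beside -0.56 and -0.60 over all subfamilies. MIR had medians of 0.57 in PS19 and 0.67 in control, with 3 of 4 subfamilies called as higher in each. Of 64 hAT-Charlie subfamilies, 27 were called as higher in each genotype, and 20 in PS19 and 21 in control as lower. A higher share at 9 months is thus not particular to the members. In CR1, 9 of the 10 tested subfamilies were higher in both genotypes, with family medians of 2.0 in PS19 and 2.05 in control. CR1_Mam was the exception, at -1.52 in PS19 (adjusted p 0.027) and -0.95 in control (adjusted p 0.165). L3 was at 1.29 in PS19 and 1.42 in control, and L3b at 1.92 and 2.02. In L2, L2b was at 1.27 in PS19 and 1.43 in control and L2 at 0.35 and 0.40, all called, while L2a (0.12 and 0.17) was not. L2c was at -0.38 in PS19, called as lower, and at -0.10 in control, not called. X3_LINE was at 1.51 in PS19 and 2.07 in control, and Mam_R4 at 1.67 and 0.94, all called. On this scaling 13 members in PS19 and 12 in control were higher at 9 months without overlap, beside 18.7 and 19.2 percent of all subfamilies.

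Each set of 4-month samples was also taken alone on the authors' scaling. Against replicates 4 and 5, 12 members were higher and 3 lower at 9 months in PS19, beside 14 percent of all subfamilies higher and 50.2 percent lower. In control 10 were higher and 1 lower, beside 16.3 percent higher and 50.2 percent lower. Against replicates 1 to 3, 2 members were higher and 13 lower in PS19, beside 5.43 percent higher and 88.7 percent lower. In control 2 were higher and 15 lower, beside 4.67 percent higher and 91.6 percent lower. L2b shows the turn: it was at 0.92 in PS19 and 1.08 in control against replicates 4 and 5, and at -0.67 and -0.95 against replicates 1 to 3, with a call each time. X7A_LINE kept its direction, at 1.41 in PS19 and 1.84 in control against replicates 4 and 5, and at 0.80 and 0.65 against replicates 1 to 3.

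**Figure D4:**
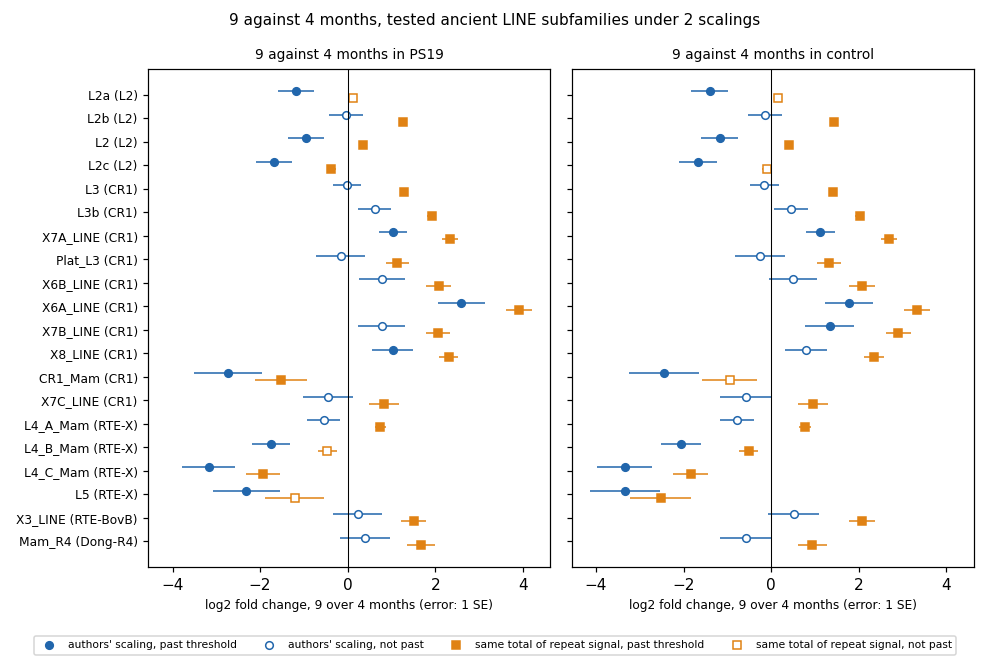
Log2 fold change of 9 over 4 months for the 20 tested ancient LINE subfamilies in PS19 (left) and control (right), on the authors' scaling (blue circles) and with each sample scaled to the same total of repeat signal (orange squares); filled symbols passed the threshold and lines are 1 SE. X6A_LINE and X7A_LINE lie right of 0 and L4_C_Mam left of 0 with filled symbols in all 4 cases, and the 9 CR1 subfamilies other than CR1_Mam lie right of 0 on the second scaling.

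Ratios between subfamilies within a sample do not depend on the size factor. They were chosen after the values were seen and are given as a description, without a test. How many other pairs of subfamilies would part the ages was not counted. With the same total of repeat signal, many single subfamilies parted the ages without overlap. Of 920, 172 were higher and 294 lower at 9 months in PS19, and 177 and 253 in control. The L2 family had a different makeup at the 2 ages. L2a over L2b was 0.612, 0.646 and 0.861 in PS19 at 9 months (lowest, median, highest) and 0.578, 0.601 and 0.642 in control at 9 months, against 1.38 to 1.59 in PS19 and 1.3 to 1.61 in control at 4 months. L2c over L2b was 0.302 to 0.475 in PS19 and 0.298 to 0.335 in control at 9 months, against 1.03 to 1.12 in PS19 and 0.765 to 1.15 in control at 4 months. L2 over L2b was 0.522 to 0.675 in PS19 and 0.465 to 0.564 in control at 9 months, against 1.03 to 1.15 in PS19 and 0.963 to 1.19 in control at 4 months. In control at 4 months L2c over L2b was 0.955 to 1.15 in replicates 1 to 3 and 0.765 to 0.814 in replicates 4 and 5. For all 3 ratios every 9-month sample lay below every 4-month sample, in both sets. Within 4 months, L2a over L2b was 1.52 to 1.61 in replicates 1 to 3 and 1.3 to 1.45 in replicates 4 and 5, without overlap. At 9 months L2a over L2b averaged 0.682 ± 0.0888 in the 7 PS19 samples and 0.604 ± 0.0225 in the 6 control samples (mean ± SD), with overlapping ranges.

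In the CR1 family L3b and X7A_LINE were higher relative to L3 at 9 months. L3b over L3 was 0.241 to 0.309 in PS19 and 0.245 to 0.292 in control at 9 months, against 0.134 to 0.203 in PS19 and 0.131 to 0.215 in control at 4 months. X7A_LINE over L3 was 0.0509 to 0.0676 in PS19 and 0.0543 to 0.083 in control at 9 months, against 0.0213 to 0.0361 in PS19 and 0.0236 to 0.0304 in control at 4 months. Neither ratio overlapped between the ages. The sum of CR1 over the sum of L2 was 0.383 to 0.479 in PS19 and 0.437 to 0.462 in control at 9 months, against 0.19 to 0.26 in PS19 and 0.181 to 0.325 in control at 4 months, again without overlap. Within RTE-X, L4_C_Mam over L4_A_Mam was 0.0388 to 0.174 in PS19 and 0.0496 to 0.163 in control at 9 months, against 0.339 to 0.906 in PS19 and 0.292 to 1.04 in control at 4 months. By set this ratio was 0.649 to 1.04 in replicates 1 to 3 and 0.292 to 0.562 in replicates 4 and 5 at 4 months, both above all 9-month samples. L3 over L2b at 9 months lay between the sets of 4-month samples. It was 0.738 to 0.811 over all 9-month samples, 0.62 to 0.707 in replicates 1 to 3 and 0.915 to 1.07 in replicates 4 and 5 at 4 months. Subfamilies of a family share sequence, and how reads that fit several of them were assigned is not given in the sources used here. Whether counting was the same at both ages was not tested.

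**Figure D5:**
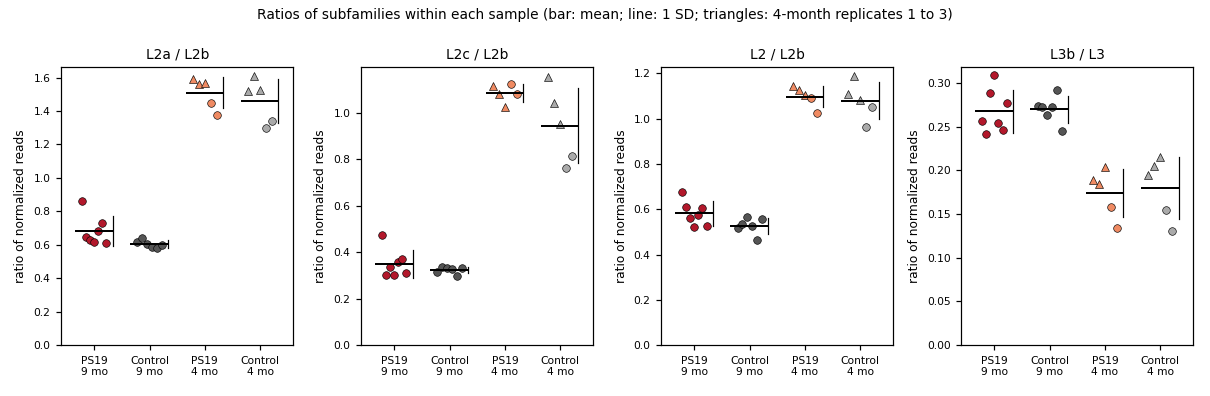
Ratio of normalized reads of L2a, L2c and L2 to L2b, and of L3b to L3, in each sample for PS19 and control at 9 months and PS19 and control at 4 months; points are samples, triangles replicates 1 to 3 at 4 months, bars means and vertical lines 1 SD. The 3 L2 ratios are lower, and L3b over L3 higher, in all 13 samples at 9 months than in all 10 samples at 4 months.

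Of the 6 members under the filter, 3 had no read at 9 months. The share of all subfamilies without a read at 9 months was not counted, so it is not known whether this is particular to the members. On the authors' scaling 77 percent of tested subfamilies in PS19 and 79.3 percent in control were called lower at 9 months. Those calls cover subfamilies with a mean of at least 10 and do not count subfamilies without a read. X2_LINE had 0 reads in all 13 samples at 9 months and between 4 and 21 reads in each of the 10 samples at 4 months, 101 in all. Against the limit of 3 reads over all 9-month samples, X2_LINE was at least 43.3-fold lower at 9 months, and at least 24.2-fold lower against 4-month replicates 4 and 5 alone. X5A_LINE had 0 reads at 9 months and 157 at 4 months, where control replicate 5 also had 0, and was at least 67.3-fold lower at 9 months. Its 4-month reads lay mostly in replicates 1 to 3, and against replicates 4 and 5 alone, with 13 reads, X5A_LINE was at least 14.3-fold lower. X7D_LINE had 0 reads at 9 months and 11 at 4 months, of which PS19 replicate 1 held 5 and control replicate 1 held 4, and no fold is given. These limits cover counting error only, and age and preparation cannot be told apart for them either. They are on the authors' scaling. There the total of all repeats had a log2 ratio of -1.64 at 9 over 4 months, and of -0.49 against 4-month replicates 4 and 5. No limit was computed with the same total of repeat signal. X1_LINE had between 0 and 3 reads in each sample at 9 months and between 0 and 21 at 4 months. UCON13, tentatively classed with the Penelope elements, averaged 0.53 ± 0.73 normalized reads in PS19 and 1.13 ± 1.51 in control at 9 months, against 11.8 ± 8.47 in PS19 and 10.7 ± 9.67 in control at 4 months. X5B_LINE averaged 5.29 ± 3.34 in PS19 and 2.14 ± 2.56 in control at 9 months, against 16.3 ± 9.98 in PS19 and 14.8 ± 8.65 in control at 4 months (SD, n = 7, 6, 5 and 5). In both genotypes X5B_LINE overlapped between the ages.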

How the data were processed

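RNA of 23 spinal cord samples was measured as one table of 1135 repeat subfamilies. Each deposited signal value is a read number divided by a size factor for the sample, so the authors normalized before deposit. Trimmomatic, STAR, DESeq2 and the build mm10 are named in the submitters' processing notes, without versions. The sources used here do not name the counter or the annotation of repeats, nor how reads matching several copies were handled, and each can shift reads between related subfamilies. Dividing by 1 read per sample gave whole reads, within 0.1 read, for 100 percent of values.

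The main test was limma 3.58.1 with a trend on log2(value + 1) in R 4.3.3, over 920 subfamilies with a mean of at least 10 (215 removed), with Benjamini-Hochberg adjustment over all of them and a threshold of 0.05. A log2 fold change on this scale understates the change of low subfamilies. PS19 and control were compared within an age from that age's samples, and ages and the interaction from all 23 samples. Alternatives were other pseudocounts, filters and scalings, array weights, each set of 4-month samples and leaving out each sample. The recovered reads were also tested with DESeq2 1.42.0 and edgeR 4.0.16. edgeR kept the authors' size factors, while DESeq2 estimated its own from the tested subfamilies. Groups came from the labels. Of 56 replicate pairs none agreed within counting noise (lowest chi-square per degree of freedom 3.73). Repeat reads per sample, 338090 to 2168280, set the counting precision. Steps were also run on data made with known changes. No rate of recovered or false calls is given from that run, so no conclusion on the tests is drawn from it. This holds above all for comparisons that use the sets of 4-month samples.

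Members described with values were the leading 3 of each family by mean, and for each comparison the 3 higher and 3 lower members with the smallest p, plus those with the largest change between ages. The members under the filter were described as well, outside that rule, and X6B_LINE for its outlying sample. The members, comparison families, ratios and tests were chosen with earlier results of these data known.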

Additional observations from a re-analysis of the deposited data

Results flagged for a closer look

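A sample far from the rest of its group was looked for among the members' values, ratios and family shares. It was found in 6 of 148 groups of 5 to 7 samples, 4.05 percent. The rule's rate of about 1 in 20 assumes a group without sets, so it does not apply to the 4-month groups. X6B_LINE was lowest in PS19 replicate 2 at 9 months, at 42.1 normalized reads with the next sample at 77.9. X3_LINE was highest in control replicate 3 at 9 months, at 51.4 normalized reads with the next at 39.5. The ratio of L2c to L2b was highest in PS19 replicate 1 at 9 months, at 0.475 with the next at 0.371. The ratio of X7A_LINE to L3 was highest in control replicate 5 at 4 months, at 0.0304 with the next at 0.0252. The L2 share of the repeat signal was lowest in PS19 replicate 1 at 9 months, at 2.77 percent with the next at 2.91. In control the L2 share at 9 months was lowest in replicate 3, at 3.05 percent with the next at 3.17, and still above all PS19 samples.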

How the results depend on the processing

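No paired analysis was possible because the labels carry no replicate numbers shared between groups. Between PS19 and control 0 members were called at either age under every alternative run, leaving out each sample included. The interaction gave 9 members with array weights (45.4 percent of all subfamilies) and 0 without each sample in turn.

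Between 9 and 4 months the limma count of 10 members in PS19 (83 percent of all subfamilies called) was 17 with the same total of repeat signal (72.8 percent), 16 with TMM factors (61.5 percent), 16 with DESeq2 (65.2 percent) and 16 with array weights (95.8 percent). In control the count of 10 (85.4 percent) was 17 with the same total (76 percent), 18 with TMM factors (64.9 percent), 18 with DESeq2 (68.9 percent), 17 with array weights (97 percent) and 17 with 4-month replicates 1 to 3 alone (96.3 percent). Without each sample in turn it was 8 to 10 in PS19 (76.7 to 85.9 percent) and 9 to 10 in control (81.4 to 89 percent).

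Directions that turned are given as log2 fold changes, and the cause was not tested. DESeq2 differed from the main fit in its size factors as well as its test, so its values also rest on another scaling. In PS19 over the ages, the same total gave L3 1.29, L2b 1.27, L2 0.35, L2a 0.12 and L4_A_Mam 0.74. TMM factors gave L3 1.72, L2b 1.70, L2 0.78, L2a 0.54, L4_A_Mam 1.17 and L2c 0.051. DESeq2 gave L3 1.67, L2b 1.65, L2 0.72, L2a 0.48 and L4_A_Mam 1.14, and edgeR gave X3_LINE -0.21. Array weights gave Mam_R4 -0.27 and X3_LINE -0.85. Replicates 4 and 5 alone gave L3 0.68, L2b 0.92, L2 0.057 and L4_A_Mam 0.20, and replicates 1 to 3 alone Mam_R4 -0.51, L3b -0.0042 and X3_LINE -0.79. In control over the ages, the same total gave Mam_R4 0.94, L3 1.42, L2b 1.43, L2 0.40, L2a 0.17 and L4_A_Mam 0.78. TMM factors gave Mam_R4 1.34, L3 1.83, L2b 1.85, L2 0.82, L2a 0.58 and L4_A_Mam 1.19. DESeq2 gave Mam_R4 1.31, L3 1.77, L2b 1.81, L2 0.77, L2a 0.53 and L4_A_Mam 1.19, and edgeR gave X3_LINE -0.12. Array weights gave L3b -0.36, X3_LINE -0.39 and X7B_LINE -0.091. Replicates 4 and 5 alone gave Mam_R4 0.93, L3 0.67, L2b 1.08, L2 0.15 and L4_A_Mam 0.24, and replicates 1 to 3 alone L3b -0.31 and X3_LINE -0.65. Between genotypes at 4 months, edgeR gave L4_B_Mam -0.12 and L5 -0.15, and replicates 1 to 3 alone gave L4_B_Mam -0.27 and L5 -0.15. For the interaction, CR1_Mam was 0.24 with edgeR, 0.53 with array weights and 0.18 with 4-month replicates 1 to 3, and X7B_LINE was 0.068 with array weights.

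Leaving out 1 sample turned the direction of members near 0. In PS19 over the ages L2b ranged -0.36 to 0.19, L3 -0.27 to 0.16, Mam_R4 -0.14 to 0.71 and X3_LINE -0.16 to 0.49. In control L2b ranged -0.49 to 0.14, L3 -0.39 to 0.072 and X3_LINE -0.0014 to 0.99. Between genotypes at 4 months L4_B_Mam ranged -0.35 to 0.47, L5 -0.44 to 0.84, X6A_LINE -0.89 to 0.20 and X7B_LINE -0.25 to 0.68. For the interaction CR1_Mam ranged -0.81 to 0.69 and X3_LINE -0.76 to 0.23. The fit of PS19 replicates 6 and 7 alone against controls and the interaction with a term for the 4-month sets were chosen after seeing the data. Members with few reads at 9 months, such as L5, are limited by depth, and reads shared between subfamilies are assigned by the authors' counting.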
